A study of Mus musculus with 20 samples.

Results

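The loci of 10 transcription factors of skeletal muscle and mesenchyme were examined for peaks of 5-formylcytosine (5fC) in mouse embryos at E11.5. They comprise the 4 myogenic regulatory factors *Myf5*, *Myf6*, *Myod1* and *Myog*, the somite factors *Tcf15* and *Meox1*, and the mesenchymal factors *Twist1*, *Twist2*, *Prrx1* and *Prrx2*. The genes were chosen by name, with earlier results of these data known. The locus of each was its gene body with 10 kb on either side in NCBIM37 (mm9), so that 10 of 22367 protein-coding loci were described. Together the loci span 382967 bp, because those of *Myf5* and *Myf6* overlap.

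5fC was captured by chemical pull-down from genomic DNA and sequenced, and peaks were called in each library. Hindbrain came from 4 wild-type (WT) and 4 *Tdg* null embryos, 1 of each genotype from litters A, O, Q and Z. Heart, liver and carcass were taken from another 4 embryos, 1 of each genotype from the litters labelled pair_a and pair_b, and carcass was what remained of the embryo after dissection. In the *Tdg* null allele a neomycin-resistance cassette takes the place of the part that encodes the catalytic domain of the glycosylase TDG. Embryos of both genotypes came from crosses of heterozygous mice. No group carried a further treatment. The *Tdg* null liver of pair_b, which the study set aside for its quality, had no peak at any of the 10 loci, and it was left out of all other values, so that 19 libraries were used.

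5fC is an oxidised form of 5-methylcytosine, made by TET enzymes and excised by TDG before base excision repair restores cytosine. *Myf5* and *Myf6* lie next to each other and, with *Myod1*, encode bHLH activators that commit cells to the skeletal muscle lineage, while Myog acts later in muscle differentiation. Tcf15 (paraxis) and Meox1 act in the somites, Twist1 and Twist2 are bHLH factors of mesenchyme and neural crest that can hold back myogenic bHLH activity, and Prrx1 and Prrx2 are paired-type homeodomain proteins of limb and craniofacial mesenchyme. Peaks report a DNA modification and not transcription, and in these bulk tissues a smaller number of cells of a type and less 5fC per cell cannot be told apart.

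For each locus the stretch under peaks in the most libraries was taken. Those of *Myf5* and *Myf6* overlap a UTR, and of the other 8 the 6 covered in the most libraries, 6 or more, are shown as sequence, leaving out *Myod1* (3 libraries) and *Twist1* (1 library). Each is printed below, 5′ to 3′ on the plus strand of NCBIM37, as up to 300 bases around the middle of that stretch, with CpG dinucleotides, the substrate of this pathway, in capitals. The *Myog* window, chr1:136186251-136186550, lies just upstream of the transcription start. The windows of *Twist2* (chr1:93734701-93735000), *Prrx2* (chr2:30708451-30708750) and *Meox1* (chr11:101752901-101753200) are intronic. Those of *Tcf15* (chr2:151975951-151976250) and *Prrx1* (chr1:165168901-165169100) are intergenic and lie downstream of the gene.
Myog: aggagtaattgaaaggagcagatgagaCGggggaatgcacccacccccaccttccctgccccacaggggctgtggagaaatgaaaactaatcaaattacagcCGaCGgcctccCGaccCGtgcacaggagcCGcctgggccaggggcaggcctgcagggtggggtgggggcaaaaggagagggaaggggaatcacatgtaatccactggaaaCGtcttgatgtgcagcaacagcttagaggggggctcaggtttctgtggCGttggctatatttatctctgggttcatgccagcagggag
Twist2: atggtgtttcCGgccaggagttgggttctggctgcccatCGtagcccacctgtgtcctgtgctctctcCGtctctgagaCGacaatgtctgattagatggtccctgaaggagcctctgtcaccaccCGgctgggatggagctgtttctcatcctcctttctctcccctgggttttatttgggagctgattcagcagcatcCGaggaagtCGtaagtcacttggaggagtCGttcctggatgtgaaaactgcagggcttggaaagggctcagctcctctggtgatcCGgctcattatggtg
Prrx2: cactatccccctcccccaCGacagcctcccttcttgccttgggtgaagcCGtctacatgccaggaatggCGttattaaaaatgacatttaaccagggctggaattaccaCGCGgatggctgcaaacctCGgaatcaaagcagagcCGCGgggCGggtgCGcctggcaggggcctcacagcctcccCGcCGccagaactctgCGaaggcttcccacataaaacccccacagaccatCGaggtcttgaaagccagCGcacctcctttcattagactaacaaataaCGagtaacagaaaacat
Meox1: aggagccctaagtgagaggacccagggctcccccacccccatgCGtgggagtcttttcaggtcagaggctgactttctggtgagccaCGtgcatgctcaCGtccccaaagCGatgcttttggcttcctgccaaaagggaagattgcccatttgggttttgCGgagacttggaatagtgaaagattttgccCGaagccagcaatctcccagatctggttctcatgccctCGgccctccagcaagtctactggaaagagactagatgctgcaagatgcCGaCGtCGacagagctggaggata
Tcf15: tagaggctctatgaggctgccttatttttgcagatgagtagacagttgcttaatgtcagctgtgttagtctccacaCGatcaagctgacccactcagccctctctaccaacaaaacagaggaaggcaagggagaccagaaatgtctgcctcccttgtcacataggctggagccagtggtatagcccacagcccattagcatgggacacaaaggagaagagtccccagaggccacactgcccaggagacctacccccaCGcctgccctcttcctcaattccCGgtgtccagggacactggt
Prrx1: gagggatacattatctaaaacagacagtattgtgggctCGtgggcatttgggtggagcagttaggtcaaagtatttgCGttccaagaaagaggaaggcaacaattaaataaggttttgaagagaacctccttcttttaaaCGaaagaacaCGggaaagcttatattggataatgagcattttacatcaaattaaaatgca

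The *Prrx2* window holds the most CpGs, 16, followed by *Meox1* with 10, *Twist2* with 9 and *Myog* with 8. *Prrx1* has 4 in 200 bases and *Tcf15* 3 in 300 bases. Promoters of 300 bases in RefSeq (GRCm38.p6, 32851 sequences) have a median of 7. The *Myog* window also holds the letters CANNTG, the E-box bound by bHLH factors, with first bases at −312 and −138 from the transcription start, and the letters CTATATTTA, a site of the MEF2 type, at −64. Both strands were searched and none of the 3 matches overlapped another. CANNTG occurs in 72.3% of the RefSeq promoters and CTATATTTA in 0.195%. Among the other printed windows CANNTG occurred 3 times at *Tcf15*, 2 times each at *Twist2* and *Meox1*, 1 time at *Prrx1* and 0 times at *Prrx2*. CTATATTTA occurred in none of these.

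Across the whole genome, *Tdg* null libraries had 2.68 to 8.09% of bases under peaks and WT libraries 0.0349 to 0.939%, of which the hindbrain WT library of litter Q had 0.469%. At the *Tdg* locus, *Tdg* null libraries had 0 to 3644 bases under peaks and WT libraries 0 to 600, which does not test the deletion. In *Tdg* null tissue, 7 of 10 heart genes fixed as a tissue check were higher in heart than in hindbrain relative to the genome, whereas of 9 hindbrain genes 4 were lower in heart and 1 was higher. Of all loci, 18.3% were higher and 12.7% lower in heart than in hindbrain. Of the same 9 hindbrain genes, 3 were higher and 0 lower in carcass than in hindbrain, against 1.09 and 7.48% of all loci, so these genes do not set hindbrain apart from carcass. The 10 liver genes of the check were not compared in liver, which has 1 *Tdg* null library, and 1 of them was higher and 0 lower in heart than in hindbrain. The depth of the libraries is not known from the peak positions used here, and the raw reads, which the study also made available, were not read.

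All 10 loci had a peak in at least 1 *Tdg* null library, and 8 to 10 of them had a peak in each of the 9 *Tdg* null libraries. Taken as 1 region, the loci were covered over 4.47 to 21.1% of their bases in *Tdg* null libraries, which was 1.67 to 3.62 times the genome's own share in the same library. By the mean over the 9 *Tdg* null libraries *Meox1* was covered most, at 25.9% of the locus, a value that 99.8% of protein-coding loci did not exceed. Coverage was 15.8% at *Twist2*, 15.2% at *Myf6*, 14.9% at *Prrx2*, 13.9% at *Myf5* and 12.0% at *Myog*, with ranges over libraries that overlapped one another. *Tcf15* had 8.27% and *Prrx1* 5.04%. *Myod1* and *Twist1*, with 1.08% and 0.803%, lay below the median of 3.68% for all loci.

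**Figure D1:**
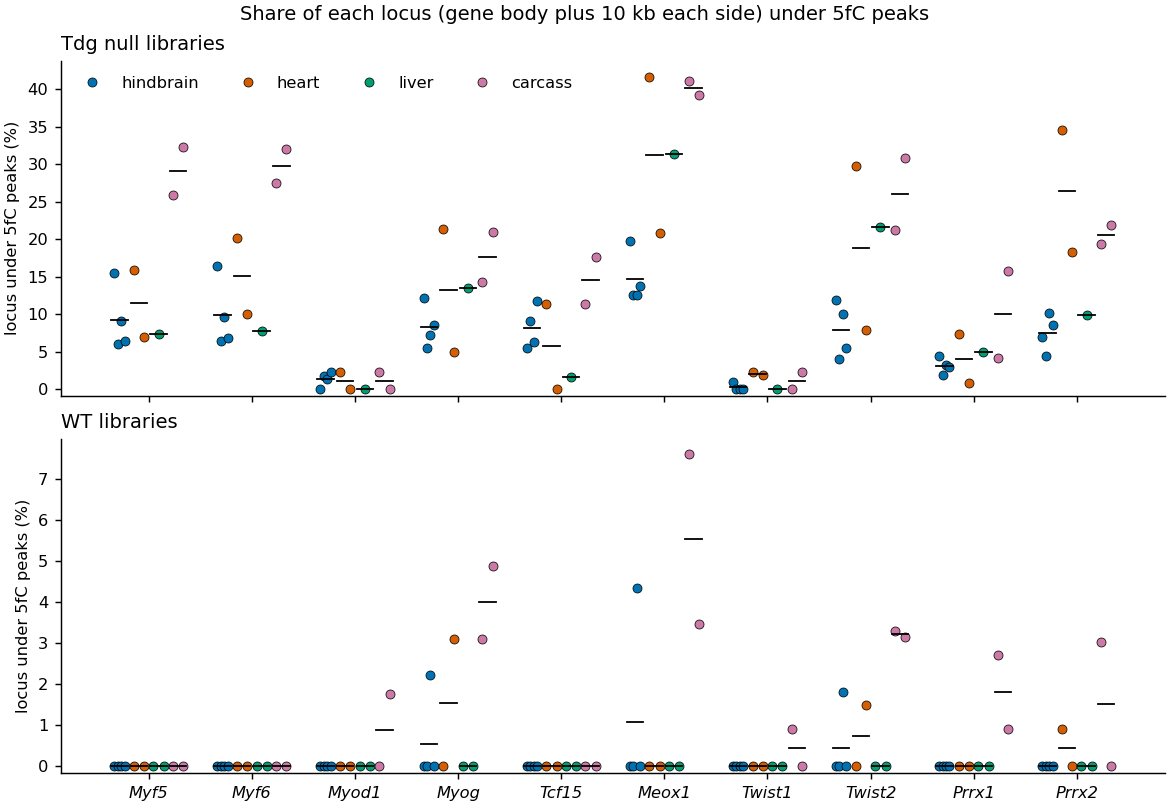
Percent of each locus under 5fC peaks (vertical axes) for the 10 loci (horizontal axis), with *Tdg* null libraries in the upper panel, WT libraries in the lower and tissues in colours. Points are libraries and short black lines are group means. The 4 hindbrain *Tdg* null libraries lie above the 4 hindbrain WT libraries at every locus except *Myod1* and *Twist1*.

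Genotype was compared first. In hindbrain, 8 of the 10 loci had more bases under peaks in *Tdg* null than in WT embryos, and the 2 genotypes did not overlap at any of these. The exact permutation test, two-sided, gave each of them p = 0.0286 (n = 4 and 4), the smallest this design gives, and an adjusted p of 0.0377. Of the 18715 loci tested, 75.7% were called higher in *Tdg* null, and in 75.7% the genotypes did not overlap in this direction. The median difference of the 10 loci was 2150 bases, against 1450 bases over all loci. Over all tissues, an exact sign-flip test over the 6 litters called the same number of loci, 8 of 10, against 70.6% of all loci (p = 0.0312, the smallest it gives, adjusted p = 0.0442), and the median difference was 2849 bases against 1550. Both counts went to 0 on scaling to the genome, as they did over all loci. The count over litters also went to 0 with any litter left out or with peaks of at least 600 bp. In hindbrain the scaled differences were 2.723 at *Myf5*, 2.892 at *Myf6*, 0.8992 at *Prrx1*, 2.195 at *Prrx2* and 2.468 at *Tcf15*. Each had an adjusted p of 0.0568 (exact permutation). The genotypes still did not overlap at these loci, which gives the smallest p of this test. *Myog*, *Twist2* and *Meox1* had 1.258, 1.326 and 2.049 (adjusted p = 0.337 to 0.707). There the WT library of litter Q stood above every *Tdg* null hindbrain.

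In carcass, limma on log2(percent of locus covered + 1) called 8 of the 10 loci higher in *Tdg* null embryos, against 70.4% of all loci, with a median difference of 2.69 against 1.85. In heart it called 9 of 10, against 79.6% of all loci, with a median of 2.95 against 2.61. These shares are close to the background of each comparison. After each library was scaled to its own genome coverage, the median of all loci moved from 1.85 to −0.14 in carcass and from 2.61 to 0.08 in heart, and the share of all loci called higher moved from 70.4 to 16.4% and from 79.6 to 27.9%. Scaled in this way, 27.6% of all loci were called lower in carcass and 28.1% in heart. The members called were then 4 higher and 2 lower in carcass, the latter being *Myod1* and *Twist1*, and 4 higher and 1 lower in heart. Unscaled, *Myod1* and *Twist1* had means of 250 and 250 bases in *Tdg* null carcass, against 200 and 100 in WT carcass. At loci this close to bare the scaling term makes up most of the value, so a lower call does not show a loss of peaks.

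The loci of *Myf5* and *Myf6* carried the most coverage in *Tdg* null carcass among the myogenic factors. *Myf5* had 6000 and 7500 bases under peaks in the *Tdg* null carcasses of pair_a and pair_b, 3700 and 1600 in the hearts, 1700 in the liver, and 3600, 1400, 2100 and 1500 in the hindbrains of litters A, O, Q and Z. All 10 WT libraries had 0, so the genotypes did not overlap in any tissue. As a share of the locus this was 29.1% ± 4.57 (SD, n = 2) in carcass, 11.4% ± 6.39 (SD, n = 2) in heart and 9.26% ± 4.37 (SD, n = 4) in hindbrain. The difference between genotypes was 4.90 ± 0.38 (SE) in carcass and 3.53 ± 0.38 in heart on the log2(percent + 1) scale (limma, adjusted p = 2.73e-07 and 1.30e-06), and 2150 bases in hindbrain. The SE is pooled over all groups, and the WT groups, all at 0, had no spread at this locus.

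*Myf6* shares 13275 bp of its window with *Myf5*, so the 2 loci are not separate observations. In hindbrain all peaks of both loci fell in the shared segment, and the covered bases of *Myf6* were the same as those of *Myf5*. The *Tdg* null carcasses had 6000 and 7000 bases, the hearts 4400 and 2200, the liver 1700 and the 10 WT libraries 0.. The *Myf6* gene body was covered over 52.7 and 74.1% in the *Tdg* null carcasses, 37.4 and 0% in the hearts, and 0% in the 4 hindbrains and the liver. The *Myf5* gene body was covered in every *Tdg* null library, over 74.1% in both carcasses and 21.7 to 74.1% in the hindbrains.

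The stretch shared by the most libraries, chr10:106920901-106921400, covers coding and untranslated sequence of *Myf5* and lay under peaks in all 9 *Tdg* null libraries. Of the 6 stretches in the *Myf6* window, 4 lay under peaks in both *Tdg* null carcasses and in no hindbrain library. They were centred at −365, 1385, 2885 and 6335 bases from the *Myf6* start. The genotype difference of *Myf6* was 4.94 ± 0.36 (SE) in carcass and 3.93 ± 0.36 in heart (limma, adjusted p = 1.77e-07 and 3.51e-07). With 5 kb on either side, which leaves out *Myf5*, the difference over the litters was 584 bases and did not pass (adjusted p = 0.537).

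*Myog* had peaks in both genotypes. The *Tdg* null libraries had 2724, 1224, 1624 and 1924 bases under peaks in hindbrain, 3224 and 4724 in carcass, 4824 and 1124 in heart and 3024 in liver. The WT libraries had 0, 0, 500 and 0 bases in hindbrain, 700 and 1100 in carcass, 0 and 700 in heart, and 0 in both livers. The lowest *Tdg* null library of each tissue stood above the highest WT library. The difference was 1749 bases in hindbrain, 1.90 ± 0.72 (SE) in carcass and 2.52 ± 0.72 in heart on the log2 scale (limma, adjusted p = 0.0297 and 0.00529). The carcass call was lost when any 1 of the 4 carcass libraries was left out (adjusted p = 0.0545 to 0.146), and the heart call without either heart of pair_a (1.56 without the *Tdg* null heart and 1.496 without the WT heart, adjusted p = 0.109 and 0.0998). With 5 kb on either side neither call held (1.76 in carcass and 0.86 in heart, adjusted p = 0.212 and 0.532). The carcass call was also lost with numbers of peaks (adjusted p = 0.0606) and with a pseudocount of 0.5 (adjusted p = 0.0688). Relative to the genome the differences in carcass and heart were −0.08 and −0.01.

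The *Myog* promoter window printed above lay inside the stretch chr1:136186201-136186600, centred at −181 bases from the transcription start, which was under peaks in 12 of 19 libraries. Of these, 8 were *Tdg* null, leaving out the heart of pair_b, and 4 were WT, namely both carcasses, the heart of pair_b and the hindbrain of litter Q. No other stretch among the 10 loci was covered in as many libraries. The *Myog* gene body was covered over 55.8 and 83.3% in *Tdg* null carcasses, 8.65 and 28.3% in WT carcasses, 12.6 to 36.2% in *Tdg* null hindbrains and 0 and 51.9% in *Tdg* null hearts. A second stretch 12419 bases after the start, inside an intron of *Ppfia4*, was under peaks in all 9 *Tdg* null and no WT libraries, so that part of the signal of the window lies in a neighbouring gene.

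*Myod1* was nearly bare. It had 0, 400, 300 and 500 bases under peaks in *Tdg* null hindbrain, 500 and 0 in carcass, 500 and 0 in heart and 0 in liver. Among WT libraries only the carcass of pair_b had any, with 400 bases. The groups overlapped in hindbrain, carcass and heart, and the locus passed in none of these comparisons (hindbrain difference 300 bases, exact permutation p = 0.143, carcass 0.11 ± 0.66 (SE), limma adjusted p = 0.979, heart 0.84 ± 0.66, adjusted p = 0.249). Without the *Tdg* null hindbrain of litter A, the bare one of the 4, the hindbrain difference was 400 bases and passed (adjusted p = 0.0364). It also passed in hindbrain with limma, with and without the litter as a block (1.09, adjusted p = 0.0496 and 0.0440), and with 20 kb on either side of the gene in hindbrain (2025 bases, adjusted p = 0.0345) and over the litters (1611 bases, adjusted p = 0.0398). Its most shared stretch, chr7:53638001-53638200, lay 6256 bases after the start and in 3 *Tdg* null libraries. The gene body itself had peaks in 1 library, the *Tdg* null heart with 2.37% covered.

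**Figure D2:**
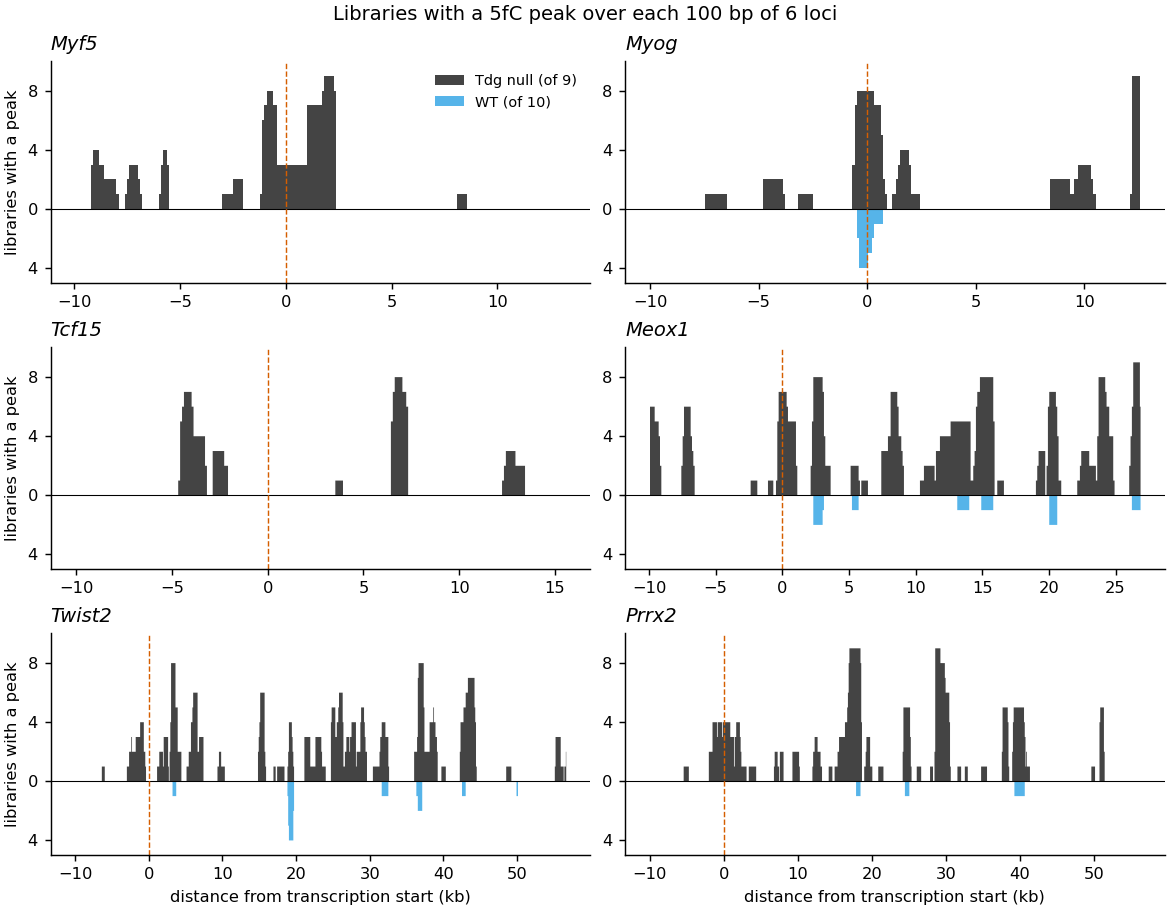
Number of libraries with a peak (vertical axis) against distance from the transcription start in kb (horizontal axis) at *Myf5*, *Myog*, *Tcf15*, *Meox1*, *Twist2* and *Prrx2*. Dark bars point up for *Tdg* null libraries, of 9, blue bars point down for WT libraries, of 10, and the dashed line is the start. At *Myog*, 8 *Tdg* null and 4 WT libraries meet just upstream of the start.

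Of the somite factors, *Meox1* was covered most. *Tdg* null libraries had 7265, 4600, 4600 and 5088 bases under peaks in hindbrain, 15165 and 14465 in carcass, 15365 and 7677 in heart and 11565 in liver. WT libraries had 0, 0, 1600 and 0 in hindbrain, 2800 and 1277 in carcass, and 0 in heart and liver. No WT library reached the lowest *Tdg* null library. Covered shares in *Tdg* null tissue were 40.2% ± 1.34 (SD, n = 2) in carcass, 31.3% ± 14.7 (SD, n = 2) in heart, 14.6% ± 3.45 (SD, n = 4) in hindbrain and 31.4% in the 1 liver. The genotype difference was 4988 bases in hindbrain, 2.73 ± 0.66 (SE) in carcass and 4.93 ± 0.66 in heart (limma, adjusted p = 0.00197 and 9.59e-06). Relative to the genome the carcass difference was 0.75 and did not pass (adjusted p = 0.259).

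In *Tdg* null tissue the coverage of *Meox1* was 6.41 ± 1.72 times the genome's share in carcass, 5.44 ± 0.40 in heart, 4.36 ± 0.89 in hindbrain (SD, n = 2, 2 and 4) and 10.3 in the liver. The 2 WT carcasses had 8.09 and 4.32 times their genome's share. Of the 15 stretches at this locus, 9 were under peaks in all 4 *Tdg* null tissues. The window printed above comes from a stretch 2638 bases after the start, in an intron, that was covered in 8 *Tdg* null libraries, the WT hindbrain of litter Q and the WT carcass of pair_a.

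*Tcf15* had 1400, 2300, 1600 and 3000 bases under peaks in *Tdg* null hindbrain, 2900 and 4500 in carcass, 2900 and 0 in heart and 400 in liver, and 0 in all WT libraries. Hindbrain and carcass were separated by genotype, and 1 of the 2 *Tdg* null hearts was as bare as the WT hearts. The difference was 2075 bases in hindbrain, 3.92 ± 0.75 (SE) in carcass and 1.81 ± 0.75 in heart (limma, adjusted p = 0.000368 and 0.0384). The heart value rests on the *Tdg* null heart of pair_a, as the other gives a difference of 0, and relative to the genome it was −0.71. At an unchanged difference of 1.81, the heart value also missed the threshold without either WT heart, the pair_a carcass of either genotype or the WT liver of pair_b. Coverage lay around the gene and not in it: the gene body had no peak in hindbrain, heart or liver and at most 7.22% in carcass.

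*Twist2* and *Twist1* are paralogues. *Twist2*, whose locus is 66568 bp long, had 7900, 2700, 6700 and 3600 bases under peaks in *Tdg* null hindbrain, 14100 and 20500 in carcass, 19805 and 5200 in heart and 14405 in liver. WT libraries had 0, 0, 1200 and 0 in hindbrain, 2200 and 2100 in carcass, 0 and 1000 in heart and 0 in both livers. The genotypes did not overlap in any tissue. The difference was 4925 bases in hindbrain, 2.65 ± 0.65 (SE) in carcass and 3.38 ± 0.65 in heart (limma, adjusted p = 0.00238 and 0.000265). The hindbrain call was lost, at adjusted p = 0.0753 to 0.0770, when any 1 WT hindbrain was left out. With any 1 hindbrain library of either genotype left out, the difference stayed between 4033 and 5767 bases. Relative to the genome the carcass and heart differences were 0.67 and 0.85 and did not pass (adjusted p = 0.274 and 0.1396).

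The *Twist2* locus held 20 stretches, most of them in its long intron, and 7 were under peaks in all 4 *Tdg* null tissues. The printed window, 36812 bases after the start, was covered in 8 *Tdg* null libraries and both WT carcasses. A stretch at 19162 bases after the start had another pattern, chosen after its values were seen. It lay under peaks in 4 WT libraries, namely both carcasses, the heart of pair_b and the hindbrain of litter Q, and in 4 *Tdg* null libraries, of which none was a carcass.

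*Twist1* had 200, 0, 0 and 0 bases under peaks in *Tdg* null hindbrain, 0 and 500 in carcass, 500 and 400 in heart and 0 in liver. Of the WT libraries only the carcass of pair_a had any, with 200. Each of its 5 stretches was seen in a single library, and no library had a peak in the gene body. The locus has 22.0 CpGs per kb, a density that 96.4% of protein-coding loci did not exceed, and CpG islands make up 11.46% of it. The heart difference passed the test (1.60 ± 0.46 (SE), limma, adjusted p = 0.00521) but was −0.93 relative to the genome, and neither hindbrain (50 bases, exact permutation p = 1) nor carcass (0.39 ± 0.46, adjusted p = 0.476) did. With 20 kb on either side the locus passed in hindbrain (1325 bases, adjusted p = 0.0345) and over the litters (1559 bases, adjusted p = 0.0398).

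Of the paired-type homeobox genes, *Prrx2* was covered more than *Prrx1*. *Prrx2* had 4600, 2900, 6700 and 5700 bases under peaks in *Tdg* null hindbrain, 12800 and 14500 in carcass, 22900 and 12100 in heart and 6500 in liver. WT libraries had 2000 bases in the carcass of pair_a, 600 in the heart of pair_a and 0 elsewhere. The genotypes did not overlap. The difference was 4975 bases in hindbrain, 3.43 ± 0.53 (SE) in carcass and 4.25 ± 0.53 in heart (limma, adjusted p = 6.97e-05 and 5.08e-06). The printed intronic window was under peaks in all 9 *Tdg* null libraries and in the WT carcass of pair_a. *Asb6* and *Ptges* lie within this window of 66270 bp, so its coverage is not that of *Prrx2* alone.

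*Prrx1* had 3900, 1600, 2800 and 2600 bases under peaks in *Tdg* null hindbrain, 3700 and 14000 in carcass, 6500 and 700 in heart and 4400 in liver. WT carcasses had 2400 and 800, and all other WT libraries 0. The 2 *Tdg* null carcasses differed from each other by more than the lower of them differed from the WT carcasses. The difference was 2725 bases in hindbrain, 1.81 ± 0.61 (SE) in carcass and 1.95 ± 0.61 in heart (limma, adjusted p = 0.0164 and 0.00924). The carcass call was lost without the *Tdg* null or the WT carcass of pair_b (0.96 and 1.33, adjusted p = 0.235 and 0.1415) and with numbers of peaks (1.52, adjusted p = 0.0531), and the heart call without the *Tdg* null heart of pair_a (0.84, adjusted p = 0.2103). With peaks of at least 600 bp the hindbrain difference was 850 bases and missed the threshold (adjusted p = 0.488). Relative to the genome the carcass and heart differences were −0.17 and −0.58. Its 22 stretches were thinly shared, the most shared being covered in 6 *Tdg* null libraries.

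**Figure D3:**
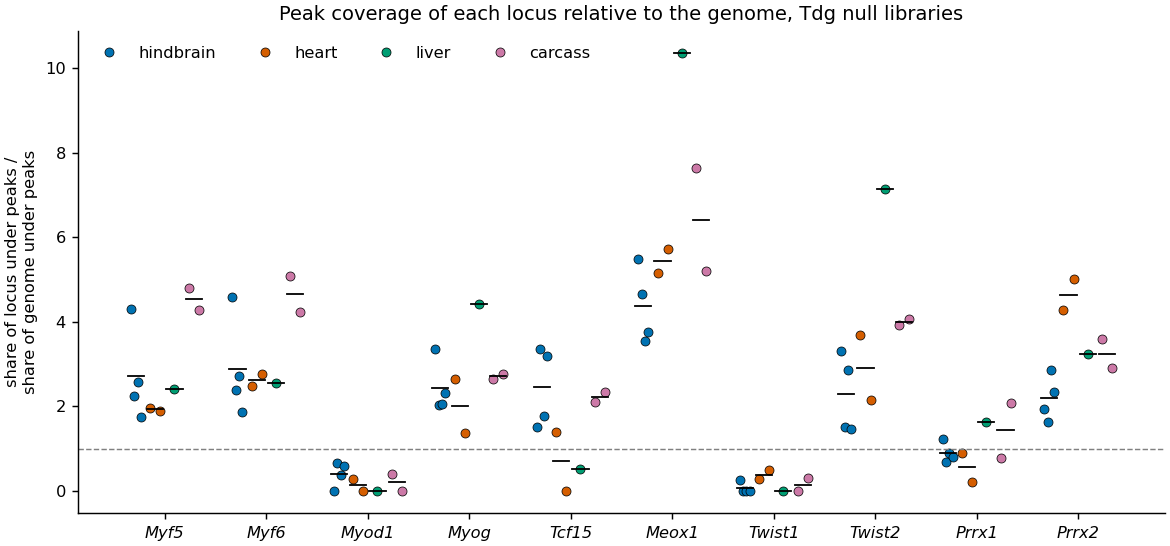
Percent of each locus under peaks divided by the percent of the genome under peaks in the same *Tdg* null library (vertical axis), by tissue (colours), for the 10 loci (horizontal axis). Points are libraries, short black lines are group means and the dashed line at 1 marks equality with the genome. *Meox1* lies between 3.54 and 10.3 and *Twist1* and *Myod1* lie below 1.

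Tissues were then compared within the *Tdg* null genotype, on log2(percent of locus covered + 1) less the same term for the genome, in 1 limma fit of the 9 libraries. All hindbrains came from litters A, O, Q and Z, and all other tissues from pair_a and pair_b. Tissue and litter therefore cannot be told apart in any comparison with hindbrain, including those in WT and the interaction below. Between carcass and hindbrain no member passed an adjusted p of 0.05, where 8.57% of the 19738 loci tested did (1.09% higher and 7.48% lower in carcass), and 5 members had an unadjusted p under 0.05, as did 34.2% of all loci. These were *Twist2* with 0.92 ± 0.38 (SE), *Myf5* with 0.86 ± 0.32, *Myf6* with 0.82 ± 0.32, *Meox1* with 0.66 ± 0.24 and *Prrx2* with 0.63 ± 0.25, all in the direction of carcass (adjusted p = 0.103 to 0.132). With 1 library left out the value of *Meox1* ranged from 0.41 to 0.90. The median of the 10 members was 0.55, against −0.33 over all loci. *Tcf15* had 0.02 ± 0.66 and *Myod1* −1.02 ± 0.67. Without the *Tdg* null hindbrain of litter A, *Myf5* and *Myf6* passed (1.10 and 1.05, adjusted p = 0.0408 and 0.0457). With 5 kb on either side of the gene *Myf6* passed at 3.93 (adjusted p = 0.00179), and with 20 kb *Meox1* passed at 0.74 (adjusted p = 0.0389). Without the scaling to the genome the median of all loci was 0.44, and 0.831% of all loci were called higher and 0.441% lower.

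Between heart and hindbrain, *Prrx2* was higher in heart by 1.09 ± 0.25 (SE, limma, adjusted p = 0.0147), the only call among the 10 against 31.0% of all loci (18.3% higher and 12.7% lower in heart). Its covered share was 26.4% ± 11.52 (SD, n = 2) in heart and 7.51% ± 2.46 (SD, n = 4) in hindbrain, or 4.64 ± 0.527 and 2.195 ± 0.536 times the genome's share, with no overlap between libraries. The call was lost without the *Tdg* null heart of pair_b, while the difference was 0.97 to 1.22 with any 1 library left out. *Tcf15* had −1.90 ± 0.66, with an adjusted p of 0.0615, and passed without the *Tdg* null heart of pair_a (−3.23, adjusted p = 0.00604), when only a heart without peaks remained. Without the heart of pair_b it was −0.58. It also passed with 5 kb (−2.43, adjusted p = 0.0391), with 20 kb (−0.92, adjusted p = 0.0170) and with peaks of at least 600 bp (−2.05, adjusted p = 0.0457). The median of the members was −0.11 against 0.13 over all loci.

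Between carcass and heart, which came from the same embryos, *Myf5* was higher in carcass by 1.18 ± 0.37 (SE, limma, adjusted p = 0.0403), again the only call, against 34.1% of all loci (7.74% higher and 26.3% lower in carcass). Its share relative to the genome was 4.79 and 4.28 in the carcasses and 1.97 and 1.89 in the hearts. *Myf6* had 0.82 ± 0.37 (adjusted p = 0.122), *Tcf15* 1.92 ± 0.76 (adjusted p = 0.0855) and *Prrx1* 1.09 ± 0.52 (adjusted p = 0.138). The call of *Myf5* was lost when any 1 of the carcass and heart libraries, or the *Tdg* null hindbrain of litter O or Q, was left out. Its difference then stayed within 1.12 to 1.25. The call was also lost without scaling to the genome (1.37, adjusted p = 0.135), with numbers of peaks (0.51, adjusted p = 0.348), with peaks of at least 600 bp (adjusted p = 0.0536) and with a pseudocount of 0.5 (adjusted p = 0.0550). *Tcf15* passed without the *Tdg* null heart of pair_a (3.25, adjusted p = 0.00652), had 0.59 without that of pair_b, and passed with 20 kb (0.90, adjusted p = 0.0295). The members' median was 0.49 against −0.43 over all loci.

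**Figure D4:**
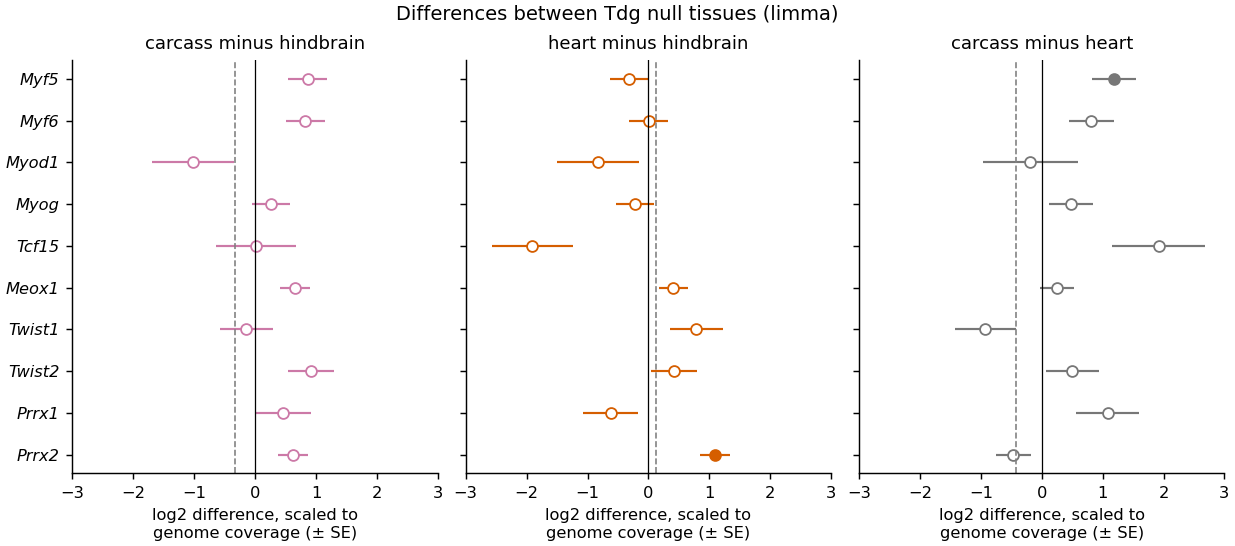
Differences between *Tdg* null tissues at the 10 loci, in log2(percent of locus + 1) relative to the genome, for carcass against hindbrain, heart against hindbrain and carcass against heart. Points are limma estimates with SE bars, filled points have an adjusted p under 0.05, and the dashed line is the median of all loci. The filled points are *Prrx2* in heart against hindbrain (1.09) and *Myf5* in carcass against heart (1.18).

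In WT tissue, carcass had the most bases under peaks at these loci. The WT carcasses had peaks at 6 and 5 of the 10 loci, with 10300 and 5677 bases in all, which was 2.86 and 1.85 times the genome's share. The WT hearts had 600 and 1700 bases, 1.18 and 3.69 times the genome's share, the hindbrain of litter Q 3300 bases, 1.84 times, and the remaining 3 hindbrains and both livers 0. *Myf5*, *Myf6* and *Tcf15* had no peak in any WT library and were not tested. Of the 7 members tested between WT carcass and hindbrain none passed, against 17.8% of all loci, and *Meox1* (1.35 ± 0.53 (SE)), *Twist2* (1.03 ± 0.41) and *Prrx1* (0.73 ± 0.27) had unadjusted p under 0.05 (limma, adjusted p = 0.0777 to 0.0894), as did 40.1% of all loci. The value of *Prrx1* ranged from 0.30 to 1.16 with 1 library left out. Without the WT hindbrain of litter Q, *Twist2* and *Meox1* passed (1.29 and 1.84, adjusted p = 0.0331 and 0.00521). Without scaling to the genome, *Prrx1* (1.41, adjusted p = 0.00379) and *Twist2* (1.71, adjusted p = 0.0488) passed, and the calls over all loci went from 9.16% higher and 8.68% lower to 25.6% and 0.477%.

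Whether the genotype difference itself differed between carcass and hindbrain was tested as an interaction. No member passed, against 3.37% of all loci. *Myf5* and *Myf6*, which share most of their signal, had 1.63 ± 0.46 and 1.59 ± 0.44 (SE) in the direction of a larger difference in carcass, with unadjusted p of 0.00331 and 0.00278 (limma, adjusted p = 0.0730 and 0.0671), and 16.2% of all loci had an unadjusted p under 0.05. With 5 kb on either side *Myf6* passed at 4.70 (adjusted p = 1.18e-05). Both loci passed when scaled to the genome (1.54 and 1.501, adjusted p = 0.0224 and 0.0260) and with numbers of peaks (2.00 and 1.92, adjusted p = 0.00249 and 0.00273). Both passed without the *Tdg* null hindbrain of litter A (1.89 and 1.85, adjusted p = 0.0134 and 0.00839). *Meox1* had −0.60 ± 0.80 and *Twist2* −0.02 ± 0.80.

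CpG islands at the members, at least 500 bp with GC of 55% or more and an observed over expected CpG of 0.65 or more, took up 12911 bases. In *Tdg* null libraries 0.929 to 17.8% of island bases were under peaks, and 4.70 to 22.1% of the bases outside islands. In every one of the 9 the share in islands was the lower of the 2. WT libraries had 0 of the 12911 island bases under peaks, against 0.0662 to 0.652% of island bases over all protein-coding loci, so a difference from those loci is not shown. The islands of *Twist1*, *Myod1*, *Prrx1* and *Tcf15* had no base under peaks in any library. The islands of *Prrx2* were covered over 3.56 to 33.4% in *Tdg* null hindbrain, heart and carcass. The island in the *Myog* window was covered over 81.7% in the heart of pair_a and 99.8% in the liver. It had 0 bases under peaks in both *Tdg* null carcasses, where the *Myog* gene body was covered over 55.8 and 83.3%. In the *Tdg* null heart of pair_b, whose peaks at *Myog* all lay downstream of the gene, 2 of its bases were covered, so it reaches into that flank. Over all protein-coding loci the share in *Tdg* null libraries was 2.46 to 7.95% in islands and 3.35 to 11.4% outside, and it was lower in islands in 8 of the 9, the hindbrain of litter A having 4.57% in islands and 4.46% outside. In WT libraries it was 0.0361 to 1.05% outside, and the share in islands was the higher of the 2 in 6 of the 10. *Myf5*, *Myf6* and *Meox1* have no island within 10 kb.

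Genes of the same pathways, in lists fixed by function with earlier results of these data known, were read beside the members. Of 13 regulators of muscle progenitors, 11 could be tested in carcass against heart of *Tdg* null embryos, and 6 were higher in carcass and 0 lower, with a median of 1.08 against −0.43 over all loci (7.74% higher and 26.3% lower, as above). *Pax3*, which acts upstream of *Myf5* and *Myod1* in the somite, was covered over 23.3% ± 2.69 (SD, n = 2) in carcass, 2.37% ± 2.14 (SD, n = 2) in heart and 8.29% ± 1.47 (SD, n = 4) in hindbrain. It was higher in carcass than heart by 2.82 ± 0.26 (SE, limma, adjusted p = 0.00107) and lower in heart than hindbrain by a difference of −2.19 ± 0.22. *Pax7*, of muscle stem cells, had 1.69 ± 0.22 in carcass against heart, and *Eya1*, a transcriptional cofactor in muscle precursors, 1.81 ± 0.22. *Pax7* and *Eya1* were lower in heart than hindbrain (−1.87 ± 0.19 and −1.48 ± 0.19) and did not pass in carcass against hindbrain (−0.18 ± 0.19 and 0.32 ± 0.19). *Eya2* had 0.70 ± 0.26 in carcass against heart and did not pass (limma, adjusted p = 0.0726). *Met*, the receptor used by migrating limb muscle precursors, had 1.08 ± 0.35 (adjusted p = 0.0464). Between carcass and hindbrain 1 of the 11 was higher and 0 lower, against 1.09 and 7.48% of all loci. In heart against hindbrain 1 of the 11 was higher and 4 were lower, against 18.3 and 12.7% of all loci.

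Of 14 factors of paraxial mesoderm and somites, 13 were tested in carcass against hindbrain, with 1 higher and 1 lower, against 1.09 and 7.48% of all loci. The higher was *Scx*, a factor of tendon progenitors (1.43 ± 0.25 (SE), limma, adjusted p = 0.0175), and the lower *Tbx6*, of presomitic mesoderm (−1.76 ± 0.35, adjusted p = 0.0268). *Foxc1* (1.52 ± 0.45) and *Mesp1* (−2.45 ± 0.72) did not pass (adjusted p = 0.0641 and 0.0647). *Uncx*, of the caudal sclerotome, was higher in carcass than heart by 1.06 ± 0.28 (adjusted p = 0.0243). In carcass against heart 4 of the 13 were higher and 2 lower, against 7.74 and 26.3% of all loci.

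Of 19 factors of mesenchyme and limb, 0 passed in carcass against hindbrain (3 at an unadjusted p under 0.05, limma), against 8.57 and 34.2% of all loci, while 4 were higher and 3 lower in carcass than heart, where 7.74% of all loci were higher and 26.3% lower. *Lmx1b*, which patterns the dorsal limb, was higher in carcass than heart by 1.28 ± 0.24 (SE, limma, adjusted p = 0.00716), and *Zeb2*, a repressor acting in neural crest and mesenchyme, was higher in heart than hindbrain by 0.88 ± 0.20 (adjusted p = 0.0143). In heart against hindbrain 4 of the 19 were higher and 5 lower, against 18.3 and 12.7% of all loci, *Lmx1b* among the latter (−1.41 ± 0.21, adjusted p = 0.00357). Of the 16 target genes of skeletal muscle, 1 was higher and 8 were lower in carcass than heart, with a median of −0.83 against −0.43 over all loci. *Tnnc1* (−1.40 ± 0.35) and *Tnni1* (−1.33 ± 0.24), troponin genes that embryonic heart muscle also uses, were among the 8. *Chrna1* (0.56 ± 0.36), *Myh3* (0.09 ± 0.22) and *Des* (−0.14 ± 0.39) did not pass. In heart against hindbrain 5 of the 16 were higher and 1 was lower, against 18.3 and 12.7% of all loci. In carcass against hindbrain 0 of the 16 passed (1 at an unadjusted p under 0.05, limma), against the same 8.57 and 34.2%.

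The lists were also counted between genotypes, and no test compares them with the members. In carcass 8 of 11 progenitor regulators, 10 of 13 somite factors, 17 of 19 mesenchyme factors and 16 of 16 muscle targets were higher in *Tdg* null embryos, and 0 were lower. In hindbrain the counts were 8 of 10, 9 of 12, 12 of 18 and 14 of 16, and in heart 7 of 11, 10 of 13, 13 of 19 and 15 of 16. These counts stand beside the backgrounds of 70.4, 75.7 and 79.6% given above for carcass, hindbrain and heart.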

How the data were processed

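The series holds 5fC peaks for 20 libraries of 12 E11.5 embryos and 6 litters, of which 19 were used. For every peak, the deposited files give its first and last base as positions, with no score, count or height. The authors trimmed reads with Trim Galore, aligned them to NCBIM37 (mm9) with Bowtie2 and called peaks with MACS in each pull-down on its own. Positions lie on a grid of 100 bp, depth is not known from them, and small differences below that grid are not resolved. 0 columns were left unassigned to a sample.

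For each protein-coding gene of the NCBIM37 annotation, bases under peaks within the gene body and 10 kb on either side were counted, and divided by locus length to a percent covered. Hindbrain was compared by two-sided exact permutation tests and litters by exact sign flips. Carcass, heart and tissue comparisons used limma 3.58.1 in R 4.3.3 on log2(percent + 1), where 1 is the pseudocount, with 2 libraries a group borrowing the spread of the others, and tissue comparisons subtracted the same term for the genome. Loci without a base under peaks in the libraries compared were not tested. P-values were adjusted by Benjamini-Hochberg over all loci. Those of limma rest on a spread pooled over all groups of a fit, bare WT groups among them. They do not measure the spread among the embryos of the compared groups alone. Python 3.11.15, numpy 2.4.6 and pandas 2.3.3 were used. The counting of bases, the exact tests and an unscaled limma contrast of *Tdg* null carcass with hindbrain were tested on simulated data. The other limma contrasts, the scaling to the genome and the block fits were not.

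The members and the gene lists were chosen with earlier results of these data known. All 10 members are named, as are *Tdg* and, of each list, genes among the 3 most covered in *Tdg* null carcass and the 3 most covered in *Tdg* null hindbrain. *Sox1* of the hindbrain check was not matched, *Mymk* was matched through the synonym Tmem8c, and where a symbol had several gene IDs the lowest was taken. The stretch shown for a member is the one under peaks in the most libraries, and sequence is shown for at most 6 members, those with the most libraries, and not where it overlaps a UTR. The stretch at *Myog* reaches the first exon, and the window shown ends before it. Litters from the labels pair the genotypes. In hindbrain the unpaired test was used because sign flips over 4 litters give no p below 0.125. The deviations of littermates from their group means correlated across loci at −0.08 to 0.05 there. That check says little about pairing, since most loci had 0 bases in WT hindbrain. Alternatives were windows of 5 and 20 kb, peaks of at least 600 bp, numbers of peaks, all annotated genes, scaling to the genome or none, a pseudocount of 0.5, loci covered in at least 2 libraries, litter or embryo as a block, each library left out and, chosen after seeing the data, loci bare in every library kept.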

Additional observations from a re-analysis of the deposited data

Results flagged for a closer look

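Single libraries stood apart from the others of their group at 4 of the 13 combinations of locus and group compared by Dixon's criterion. In each the other 3 libraries had 0 bases, so that a single peak is enough to meet it, and the rate of about 1 in 20 groups that chance gives for continuous values does not apply. In 3 of them the library was the WT hindbrain of litter Q. It had 500 bases under peaks at *Myog*, 1200 at *Twist2* and 1600 at *Meox1*, while the WT hindbrains of litters A, O and Z had 0 at each. This library had 21606 peaks and 0.469% of the genome under peaks, the most of the 4 WT hindbrains. The part of that difference in these values was not tested. The fourth was *Twist1* in the *Tdg* null hindbrain of litter A, with 200 bases against 0 in the other 3.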

How the results depend on the processing

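The genotype counts in hindbrain, carcass and heart (8, 8 and 9 of 10) changed with scaling, pairing and the library left out. Scaled to the genome, 0 members passed in hindbrain and 0 over the litters, as no locus did, 6 passed in carcass (4 higher, 2 lower) and 5 in heart. With the litters as pairs in hindbrain (exact sign flips over 4 litters, replicate block), 0 passed, since the smallest p of that test is 0.125, whereas limma gave 9 with and 9 without the replicate block (73.8 and 79.1% of all loci). With litter as a random block the counts were 8 in carcass and 9 in heart (70.3 and 78.9% of all loci). Over litters, 0 passed with peaks of at least 600 bp, as no locus did, although the median difference over all loci was still 1339 bases, against 1550 in the main test. With any litter left out 0 passed, since 5 litters allow no p below 0.0625. Leaving out 1 library gave 7 to 9 in hindbrain, 6 to 8 in carcass and 6 to 9 in heart. Reversed on scaling were *Myog* over litters (−1.12), in carcass (−0.0841) and in heart (−0.0129), *Prrx1* in carcass (−0.17) and heart (−0.58), and *Tcf15* (−0.71) and *Twist1* (−0.93) in heart.

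Tissue counts were small and moved with several choices. *Tdg* null carcass against hindbrain went from 0 to 1 with 5 kb (5.31% of all loci), 2 with 20 kb (19.7%) and 0 to 2 with a library left out. Heart against hindbrain went from 1 to 3 with 5 kb (27.7% of all loci), 5 with 20 kb (35.7%), 2 with peaks of at least 600 bp (27.6%) and 0 to 2 with a library left out. Carcass against heart went from 1 to 3 with 5 kb (29.5% of all loci) and 3 with 20 kb (40.4%), to 0 with peaks of at least 600 bp (31.2%), with numbers of peaks (14.8%), without scaling (10.7%) and with a pseudocount of 0.5 (29.9%), and 0 to 2 with a library left out. WT carcass against hindbrain went from 0 to 2 with peaks of at least 600 bp (20.1% of all loci), 2 without scaling (26.05%), 0 to 2 with a library left out, and 6 (3 higher, 3 lower) with bare loci kept, against 61.9% of all loci (9.83% higher, 52.1% lower), where a locus bare everywhere carries only the scaling term. The interaction went from 0 to 1 with 5 kb (4.01% of all loci), 2 with numbers of peaks (5.93%), 2 with scaling (7.499%) and 0 to 2 with a library left out. Without scaling the median of all loci moved from −0.33 to 0.44 in carcass against hindbrain, from 0.13 to 0.71 in heart against hindbrain, from −0.43 to −0.24 in carcass against heart and from −0.12 to 0.55 in WT, and the calls in heart against hindbrain were 26.1% higher and 2.88% lower, in carcass against heart 3.26% and 7.42%. Depth is not known from the peak positions, so a locus without a peak is not shown to lack 5fC.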
